A study of Mus musculus with 3 samples.

Results

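The CpG sites described here are isolated ones, that is, autosomal CpG positions with no other listed CpG position within 500 bp on either side. The lists of the 3 deposited files were joined for this rule, which uses positions and no methylation value. It selected 144899 of the 17571641 autosomal sites listed in any file (0.825%). The contrast was with 8908295 dense sites, which have 10 or more listed neighbours within 500 bp. Unless stated otherwise, levels were compared at the 48069 isolated and 4307963 dense sites that all 3 files list.

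The study sequenced bisulfite-treated DNA of spermatogonia from C57BL6/J mice at postnatal day 7, with 1 library analysed here per genotype: WT, *Pld6* KO, and *Dnmt3l* KO, which is labelled Dnmt3L KO. The cells were sorted with an antibody against EpCAM, a surface protein of spermatogonia and of epithelial cells. By the study's methods, WT could include mice heterozygous for either deletion. *Pld6* encodes a nuclease needed to make PIWI-interacting RNAs (piRNAs), and *Dnmt3l* encodes the partner of the de novo DNA methyltransferases.

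In male germ cells DNA methylation is erased before birth and then laid down anew in prospermatogonia, largely by DNMT3A and DNMT3C together with DNMT3L. Afterwards DNMT1 copies the pattern at each division. CpG sites are scarce in most of the mouse genome because methylated cytosine mutates readily. Clusters of sites at gene starts, called CpG islands, mostly stay unmethylated.

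The sequences of 8 isolated sites show what such a position looks like. Each is the plus strand of GRCm38 (mm10), with 30 bases of flank on each side of the C, and the capitals mark the CpG with its 2 neighbouring bases on each side. Sites with 5 to 20 calls in each library were ranked. The first 4 were taken as the site outside repeats with the highest count in its least covered library, a site methylated in all calls of WT and of both KOs, the site with the lowest WT level and the site with the largest difference between WT and *Pld6* KO. The other 4, each among the 3 best covered sites of its context by the same measure, stand for base contexts that had low and high levels in *Dnmt3l* KO. All have no other CpG of the reference within 500 bp and lie between genes, 9.42 to 304 kb from the nearest one, outside soft-masked repeats.
best covered, chr14:36463817-36463877: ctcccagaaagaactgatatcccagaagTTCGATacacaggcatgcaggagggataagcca
fully methylated, chr4:13626471-13626531: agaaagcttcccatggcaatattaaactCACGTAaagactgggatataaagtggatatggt
low in WT, chr10:34716030-34716090: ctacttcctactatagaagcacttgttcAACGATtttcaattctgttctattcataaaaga
lower in both KOs, chr9:12788983-12789043: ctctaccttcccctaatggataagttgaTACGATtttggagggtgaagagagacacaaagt
AACGTT, first, chr8:7601022-7601082: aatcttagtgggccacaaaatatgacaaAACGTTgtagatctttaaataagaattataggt
AACGTT, second, chr11:15593895-15593955: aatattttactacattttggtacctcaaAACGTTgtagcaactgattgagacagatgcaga
AGCGCA, chr1:141254311-141254371: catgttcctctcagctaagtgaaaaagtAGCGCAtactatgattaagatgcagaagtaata
GGCGCA, chr7:123582571-123582631: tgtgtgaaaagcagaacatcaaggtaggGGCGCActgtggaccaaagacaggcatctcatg

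At the best covered site 8 of 10 were methylated for WT, 9 of 10 for *Pld6* KO and 3 of 9 for *Dnmt3l* KO. At the fully methylated site they were 6 of 6, 11 of 11 and 6 of 6, so that no unmethylated call was seen there in *Dnmt3l* KO. The site low in WT had 1 of 6, 1 of 5 and 0 of 6 methylated calls. The site lower in both KOs had 6 of 6 for WT, 2 of 7 for *Pld6* KO and 0 of 5 for *Dnmt3l* KO. The AACGTT sites had 7 of 7, 5 of 7 and 0 of 9 at the first, and 5 of 6, 4 of 7 and 2 of 5 at the second. At the AGCGCA site 6 of 6, 6 of 6 and 3 of 9 calls were methylated, and at the GGCGCA site 7 of 8, 4 of 5 and 2 of 5. These sites were picked by their calls or levels, and such small counts describe single positions only.

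The isolated sites carried 251993 calls for WT, 348751 for *Pld6* KO and 122539 for *Dnmt3l* KO, a mean of 2.42, 2.99 and 1.65 calls per listed site. A call is 1 read of the site as methylated or unmethylated, and a level is the share of methylated among all calls, with calls pooled over sites. Reads had at most 100 bp, so no read covered 2 isolated sites. The 95% intervals below (Wilson for a level, Newcombe for a difference of levels) cover counting error only, since duplicate reads and the spread between mice are not in them. With 1 library per genotype no test between genotypes was possible, and a difference of genotypes cannot be told apart from one of libraries. As a check of the labels, the 2 *Pld6* exon models without calls in *Pld6* KO held 90 calls in WT, and the 7 of 19 *Dnmt3l* exon models without calls in *Dnmt3l* KO held 16 calls in WT. These exon models were picked for their lack of calls in the KO. For *Dnmt3l* the check is weak, because exon models 2 and 7 had 0 calls in WT too and the *Dnmt3l* KO library had the fewest calls. Methylation calls do not report markers of the sorted cells, but the start of *Kcnq1ot1*, an imprinted transcript whose promoter is methylated on the maternal allele only, had a level of 0.0780 for WT, 0.0700 for *Pld6* KO and 0.0154 for *Dnmt3l* KO.

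Isolated sites lie in AT-rich stretches. Their median GC content was 37.2% against 48.4% for dense sites. Inside RefSeq genes lay 31.8% of isolated and 67.4% of dense sites, and within 2 kb of a gene start 2.51% and 20.4%. Soft-masked repeats held 35.1% of isolated and 13.7% of dense sites. Of the isolated sites, 72259 had no further CpG of the reference within 500 bp either, whereas 72640 had at least 1 that no file listed, with a median of 2.

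Isolated sites were highly methylated in WT and *Pld6* KO and had far lower levels in *Dnmt3l* KO. Their pooled level was 0.818 (95% interval 0.816 to 0.820) for WT, 0.812 (0.810 to 0.814) for *Pld6* KO and 0.273 (0.270 to 0.276) for *Dnmt3l* KO. The level in *Dnmt3l* KO was 0.545 below WT (0.542 to 0.549). At dense sites the levels were 0.582 for WT, 0.620 for *Pld6* KO and 0.259 for *Dnmt3l* KO, so that the difference of *Dnmt3l* KO from WT was 0.323. The difference was thus larger at isolated than at dense sites by 0.223 (0.219 to 0.226). In *Dnmt3l* KO itself isolated and dense sites differed little in level, whereas in WT they were far apart.

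The excess depended on the set of dense sites. Against dense sites over 2 kb from every gene start, with levels of 0.664, 0.691 and 0.298 in WT, *Pld6* KO and *Dnmt3l* KO, the excess of the *Dnmt3l* KO difference was 0.179 (0.176 to 0.183). Sites isolated in the reference too had 0.827, 0.824 and 0.294 in the same order. Isolated sites with an unlisted neighbour had 0.807, 0.797 and 0.246. A few dense sites carried up to 234067 calls in WT, and with at most 20 calls per site and library the excess was 0.2001 (0.197 to 0.204).

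In *Pld6* KO the isolated sites were lower than in WT by 0.00630 (0.00357 to 0.00903), a difference whose interval included 0 at sites with at least 3 calls in each library, at 0.00114 (-0.00602 to 0.00827). With calls pooled, dense sites had a level higher in *Pld6* KO, with a WT minus *Pld6* KO difference of -0.0385. Isolated and dense sites thus differed in this respect by 0.0448 (0.0420 to 0.0475). When each site counted equally instead of each call, the isolated difference was 0.0146 and this excess was 0.0101. The WT level was then slightly higher at dense sites too, so the higher dense level in *Pld6* KO held for pooled calls only.

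Levels changed step by step with the number of neighbours. In *Dnmt3l* KO the level was 0.273 with no neighbour, 0.294 with 1, 0.335 with 2 to 4 and 0.385 with 5 to 9. With 10 to 19 neighbours it was 0.337, and with 20 or more 0.119. In WT the levels over the same classes were 0.818, 0.831, 0.848, 0.853, 0.744 and 0.308. The WT minus *Dnmt3l* KO difference therefore ran downwards over all 6 classes, from 0.545 through 0.537, 0.514, 0.468 and 0.407 to 0.189. Isolated sites were not the most methylated class in any genotype, and sites with 5 to 9 neighbours had the highest level in all 3. In *Pld6* KO the pooled level was below WT up to 9 neighbours and above it from 10 on. With each call counted equally, WT minus *Pld6* KO was -0.0191 for 10 to 19 neighbours and -0.0522 for 20 or more.

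**Figure D1:**
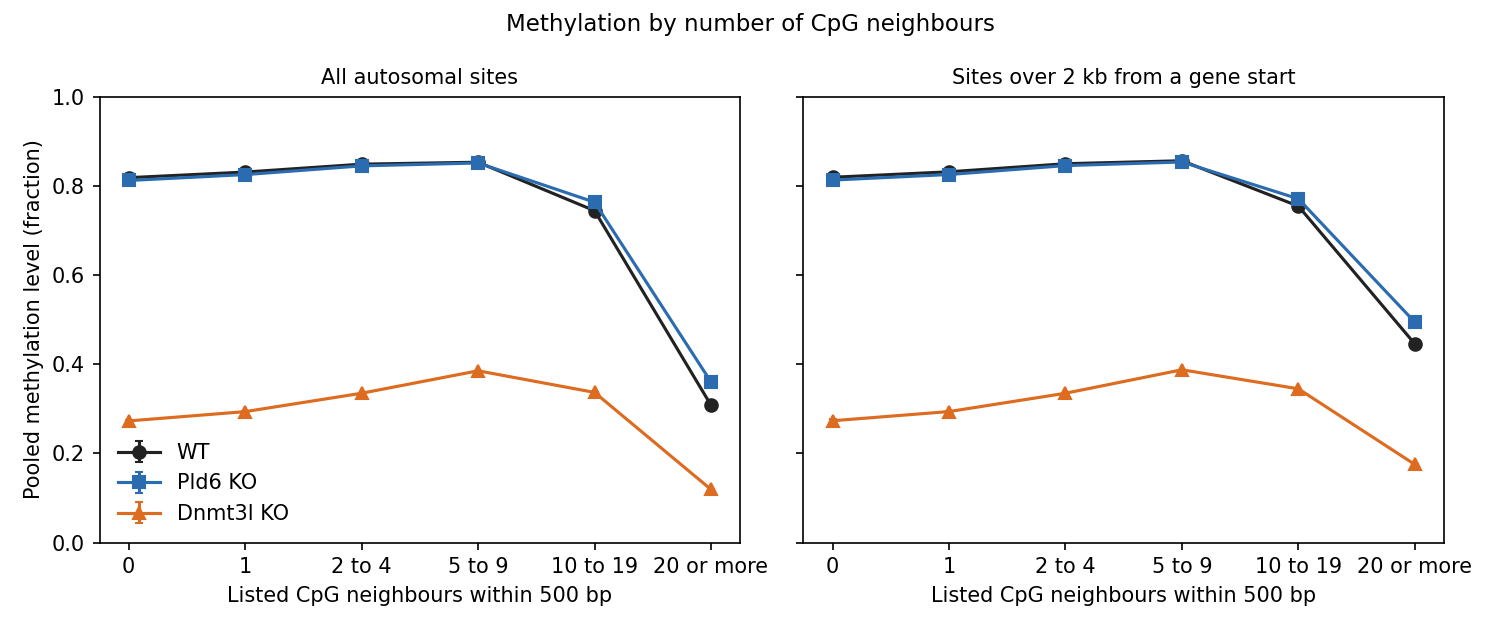
Pooled methylation level (fraction, vertical axis) by the number of listed CpG neighbours within 500 bp (horizontal axis) for WT, Pld6 KO and Dnmt3l KO, at sites listed in all 3 files, with all sites on the left and sites over 2 kb from a gene start on the right. Bars are 95% Wilson intervals, mostly smaller than the symbols. WT stays between 0.818 and 0.853 up to 9 neighbours and falls to 0.308 at 20 or more, whereas Dnmt3l KO rises from 0.273 to 0.385 and then falls to 0.119.

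Sites on either side of the 500 bp threshold had like levels. Isolated sites whose nearest neighbour was beyond 500 bp by 10 bp or less had 0.818, 0.820 and 0.293 in WT, *Pld6* KO and *Dnmt3l* KO. Sites just outside the rule, with a nearest neighbour in the last 10 bp up to 500 bp, had 0.827, 0.824 and 0.316. Farther from a listed neighbour the levels were lower. In *Dnmt3l* KO they were 0.279 up to 1000 bp, 0.215 from there to 2 kb and 0.154 over 2 kb, and in WT 0.823, 0.778 and 0.691. Soft-masked repeats held 29.8%, 42.2% and 68.9% of these sites, and the part of repeats in the order was not tested. The 813 sites between 1000 bp and 2 kb from their nearest CpG in the reference itself, of which 24.5% were soft-masked, had 0.796 in WT and 0.244 in *Dnmt3l* KO. Only 2 sites, with 11 WT calls, were over 2 kb from any other CpG of the reference. The 399 sites over 2 kb from a listed neighbour thus nearly all had a nearer CpG that no file listed.

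Among isolated sites, the bases next to the CpG went with the level seen in *Dnmt3l* KO. A CpG and the base on either side form 10 contexts when both strands are read as 1. In *Dnmt3l* KO the level ran from 0.150 (0.142 to 0.157) in TCGA to 0.433 (0.410 to 0.455) in GCGC, a 2.89-fold range. CCGC had 0.425, ACGC 0.354 and GCGA 0.324, whereas ACGA had 0.227 and CCGG 0.246. In WT the same contexts had levels from 0.762 in TCGA to 0.865 in GCGC, a 1.13-fold range, and in *Pld6* KO from 0.749 to 0.857. GCGC and TCGA were also the highest and lowest of the 10 in *Dnmt3l* KO at sites isolated in the reference, at sites outside repeats and at sites outside genes. Inside genes TCGA was again lowest, at 0.194, and CCGC highest, at 0.517.

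Contexts differed by the second base out as well. No further CpG can lie in the 6 bases of an isolated site, which left 120 contexts, and 108 of them had at least 300 calls in *Dnmt3l* KO. Their levels ran from 0.0919 (0.0749 to 0.112) in ATCGAC, the same as GTCGAT on the other strand, to 0.547 (0.503 to 0.590) in AGCGGA. In WT the 108 contexts stayed between 0.709 and 0.905. Within the inner context ACGT, the outer bases alone separated AACGTT, at 0.108, and CACGTG, at 0.134, from TACGTA, at 0.496. CACGTG is the E-box bound by MYC-family factors, and its WT level was 0.794. Of the AACGTT sites printed above, the first had 0 of 9 methylated calls in *Dnmt3l* KO and the second 2 of 5, as many as the GGCGCA site. An AACGTT site ranked between these by depth, on chromosome 14 and not printed, had 0 of 6. The unprinted site among the 3 best covered in GCGC, soft-masked and on chromosome 8, had 0 of 5.

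Dense sites had a like order of contexts in *Dnmt3l* KO. Across the 108 contexts, the level at isolated sites and at dense sites over 2 kb from a gene start had a Pearson's *R* of 0.884 in *Dnmt3l* KO and of 0.198 in WT. The points of a genotype share 1 library, and contexts are not independent replicates. The level in *Dnmt3l* KO was lower at isolated than at these dense sites in 86 of the 108 contexts. The WT minus *Dnmt3l* KO difference was larger at isolated sites in 10 of 10 contexts of the adjoining bases. When the dense sites were weighted to the contexts of the isolated sites, they had 0.669 in WT and 0.286 in *Dnmt3l* KO, against 0.818 and 0.273 at the isolated sites. No maximum of calls per site was set for these dense levels. In AACGTG the dense sites held 717102 WT calls with a level of 0.329, against 0.780 at its isolated sites. The part of sites with very many calls in these *R* values and weighted levels was not tested.

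**Figure D2:**
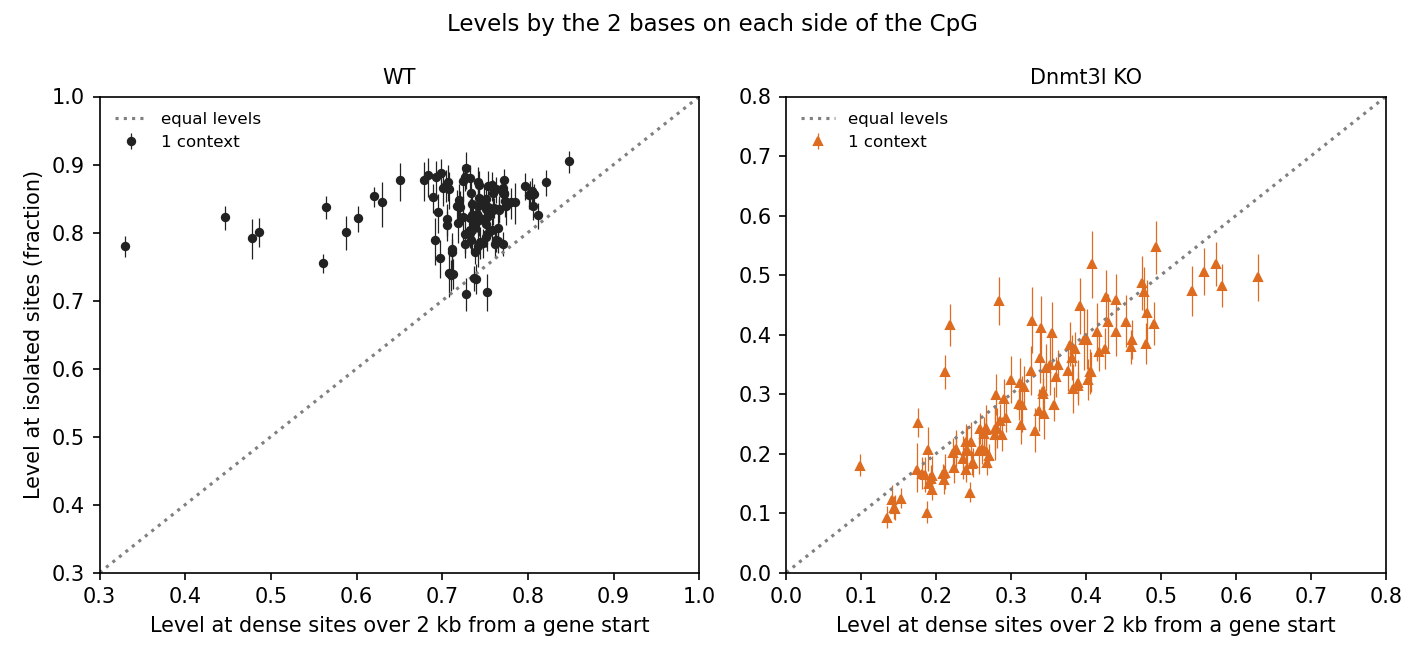
Level at isolated sites (fraction, vertical axis) against the level at dense sites over 2 kb from a gene start (fraction, horizontal axis) for the 108 contexts formed by the 2 bases on each side of the CpG, in WT (left) and Dnmt3l KO (right). Each point is 1 context, vertical bars are 95% Wilson intervals and the dotted line marks equal levels. The Dnmt3l KO contexts spread from 0.0919 to 0.547 along the line, whereas the WT contexts stay between 0.709 and 0.905 at isolated sites.

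Base composition around the site went in the same direction in *Dnmt3l* KO. In 5 groups of rising GC content within 500 bp of the site, the *Dnmt3l* KO level was 0.241, 0.252, 0.261, 0.296 and 0.308, and the WT minus *Dnmt3l* KO difference was 0.568, 0.566, 0.558, 0.532 and 0.508. WT levels in these groups lay between 0.809 and 0.828, with no such order. The WT minus *Pld6* KO difference stayed between 0.00306 and 0.00885.

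Isolated sites inside genes had higher levels than those between genes, above all in *Dnmt3l* KO. Inside genes the level was 0.844 (0.841 to 0.847) for WT, 0.838 (0.835 to 0.841) for *Pld6* KO and 0.343 (0.338 to 0.349) for *Dnmt3l* KO. Outside genes it was 0.805 (0.802 to 0.807), 0.798 and 0.238 (0.235 to 0.242). In protein-coding genes it was 0.851, 0.846 and 0.359. More than 50 kb from any gene it was 0.802, 0.796 and 0.220, so that the WT minus *Dnmt3l* KO difference was largest there, at 0.583, against 0.501 inside genes. Sites isolated in the reference too had 0.852, 0.850 and 0.368 (0.360 to 0.376) inside genes and 0.815, 0.810 and 0.258 (0.254 to 0.263) outside. Dense sites went the same way, with 0.617, 0.658 and 0.306 inside genes and 0.531, 0.563 and 0.188 outside.

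In exons the *Dnmt3l* KO level was 0.350 (0.326 to 0.376), an interval that held the 0.343 of introns. The 1220 isolated sites within 2 kb of a gene start had 0.786, 0.777 and 0.259 in WT, *Pld6* KO and *Dnmt3l* KO, whereas dense sites there had 0.210, 0.255 and 0.0840. Nearness to a gene start thus went with low methylation at dense sites, and far less so at isolated ones.

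Repeats held isolated sites of lower level. Soft-masked sites had 0.793 for WT, 0.779 for *Pld6* KO and 0.228 for *Dnmt3l* KO, and other isolated sites 0.829, 0.826 and 0.293. Among sites isolated in the reference too, soft-masked ones had 0.814, 0.805 and 0.263 (0.255 to 0.271), and others 0.831, 0.829 and 0.305. The WT minus *Pld6* KO difference was 0.0135 (0.00832 to 0.0187) in soft-masked sequence and 0.00319 (7.37e-06 to 0.00638) elsewhere. Genes and repeats were not the same division, because unmasked isolated sites had 0.360 inside and 0.258 outside genes in *Dnmt3l* KO, and soft-masked ones 0.299 and 0.198.

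The pattern was shared by the chromosomes. Over the 19 autosomes the isolated level ran from 0.760 on chromosome 7 to 0.850 on chromosome 11 in WT. It ran from 0.758 on chromosome 7 to 0.847 on chromosome 10 in *Pld6* KO. In *Dnmt3l* KO it ran from 0.239 on chromosome 7 to 0.322 on chromosome 11. The WT minus *Dnmt3l* KO difference at isolated sites lay between 0.516 on chromosome 19 and 0.570 on chromosome 12. It exceeded that at dense sites on all 19, by 0.172 on chromosome 18 to 0.288 on chromosome 2. In *Dnmt3l* KO alone, the isolated level was above the dense level on 10 chromosomes and below it on 9. This difference ran from -0.0492 on chromosome 4 to 0.0896 on chromosome 2. Chromosome 2 had the lowest dense levels of the 19, with 0.469 for WT and 0.205 for *Dnmt3l* KO. Its isolated levels, 0.847 and 0.294, were not at either end. Dense levels by chromosome were taken without a maximum of calls per site. The part of sites with very many calls in them was not tested.

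For *Pld6* KO the WT level was higher at isolated sites on 16 of 19 chromosomes, and the interval of the difference excluded 0 on 5 of them. At dense sites the WT level from pooled calls was lower on all 19, with differences from -0.0427 to -0.0301. Isolated sites inside genes were above those outside on 19 of 19 chromosomes in *Dnmt3l* KO, by 0.0627 to 0.146, and on 18 of 19 in WT. The exception was chromosome 12, at -0.0323 in WT, and it was the exception in *Pld6* KO too, at -0.0172. This chromosome holds the immunoglobulin heavy chain locus, whose part in the exception was not tested.

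**Figure D3:**
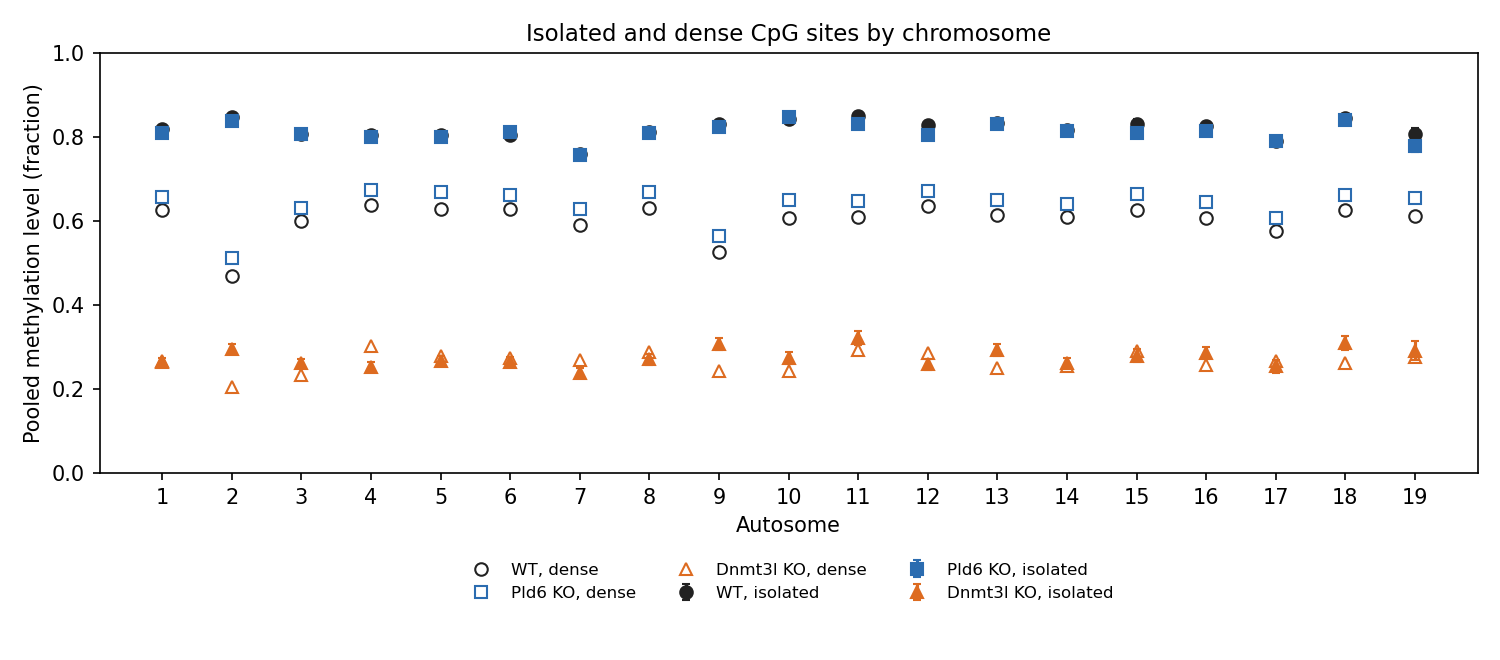
Pooled methylation level (fraction, vertical axis) of isolated sites (filled) and dense sites (open) on each of the 19 autosomes (horizontal axis) for WT, Pld6 KO and Dnmt3l KO. Bars are 95% Wilson intervals of the isolated sites. Isolated sites of WT and Pld6 KO lie between 0.758 and 0.850, above every dense value. In Dnmt3l KO isolated sites lie between 0.239 and 0.322 and dense sites between 0.205 and 0.301, so that the ranges overlap.

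Within chromosomes the level varied by region. In 5 Mb windows with at least 100 calls at isolated sites in each library, 352 of 502, the level ran from 0.527 to 0.932 in WT and from 0.0811 to 0.522 in *Dnmt3l* KO, and the highest in *Pld6* KO was 0.923. The *Dnmt3l* KO level was at least 0.3 below WT in 351 windows, and the *Pld6* KO level in 0 (1 library each, so that no test could be made). Over all autosomal sites the pooled WT minus *Dnmt3l* KO difference was itself 0.384, and windows were not counted at other sites. WT was under 0.7 in 19 windows. Of these, 17 were under 0.7 in *Pld6* KO too and 7 were on chromosome 7, which has 23 of the 352 windows.

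The first 50 Mb of chromosome 7, with large clusters of vomeronasal and zinc finger genes, had 0.650 for WT, 0.633 for *Pld6* KO and 0.157 for *Dnmt3l* KO. The remainder of chromosome 7 had 0.819, 0.825 and 0.285. Without that segment, the autosomal levels were 0.822, 0.816 and 0.275. Across windows, WT and *Pld6* KO had a Pearson's *R* of 0.874 and WT and *Dnmt3l* KO of 0.672, while isolated and dense sites of WT had 0.291. These are descriptions over 352 windows, and the values of a window share its sequence and depth.

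**Figure D4:**
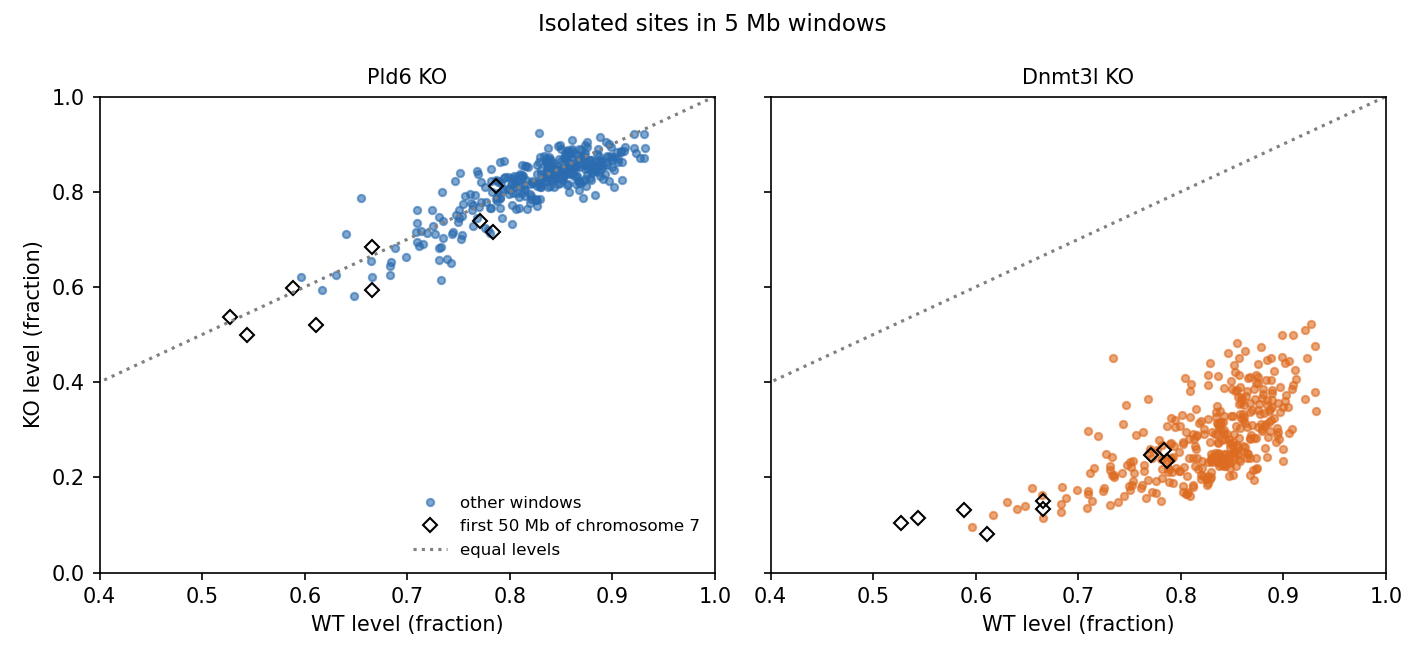
Level of the isolated sites (fraction) in 352 windows of 5 Mb, with WT on the horizontal axis and Pld6 KO (left) or Dnmt3l KO (right) on the vertical axis. Diamonds are windows in the first 50 Mb of chromosome 7 and the dotted line marks equal levels. Pld6 KO windows lie along the line, and all Dnmt3l KO windows lie below it, between 0.0811 and 0.522.

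Isolated sites listed in all 3 files fell in 5496 of 37308 autosomal genes, mostly 1 or a few per gene, and 237 genes had at least 20 calls in each library. In 229 of these (96.6%) the *Dnmt3l* KO level was at least 0.3 below WT, and in *Pld6* KO in 0 (0%). The same count was not made over the other sites of these genes. The median gene had 0.848 for WT, 0.848 for *Pld6* KO and 0.286 for *Dnmt3l* KO. Since most genes had few calls, intervals are given for those described.

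The genes with the most isolated sites were both immunoglobulin loci, followed by *Cntnap2*. *Igk*, the immunoglobulin kappa light chain locus (chr6:67555636-70726754, plus strand), held 147 sites, with 0.808 for WT, 0.810 for *Pld6* KO and 0.178 (0.138 to 0.226) for *Dnmt3l* KO. *Igh*, the heavy chain locus (chr12:113258768-116009954, minus strand), held 144 sites with 0.603 (0.558 to 0.647), 0.543 (293 of 540 calls) and 0.102 (0.0723 to 0.143). Its WT level was below that of *Igk*, with intervals that did not overlap. *Cntnap2*, which encodes a neurexin-like adhesion protein of axons (chr6:45060061-47301393, plus strand), held 105 sites with 0.845, 0.880 and 0.311 (0.248 to 0.382).

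Of the 12 protein-coding genes with at least 100 calls in each library, *Csmd1*, which encodes a large complement-control protein of the brain, had the largest *Dnmt3l* KO difference from WT. Its levels were 0.890 for WT, 0.878 for *Pld6* KO and 0.235 for *Dnmt3l* KO, a difference of 0.655 (0.552 to 0.733). *Lrp1b*, an LDL receptor-related protein, had 0.840, 0.811 and 0.208, and *Naaladl2* 124 of 155 methylated calls in WT, with 0.834 and 0.170 in the KOs. At the other end, *Dlg2*, a scaffold protein of synapses, had 0.816, 0.813 and 0.379, a difference of 0.437 (0.331 to 0.530). *Lsamp*, an adhesion protein of limbic neurons, had 0.871, 0.866 and 0.384. The intervals of *Csmd1* and *Dlg2*, which were picked as the ends of the 12, did not overlap. For *Pld6* KO the 12 differences from WT lay between -0.0350 (*Cntnap2*) and 0.0557 (*Ptprd*, a receptor phosphatase), all with 0 inside the interval.

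Among 121 protein-coding genes with at least 30 calls, the *Dnmt3l* KO level ran from 0.0159 to 0.571 and was at least 0.3 below WT in 118. Here too no such count was made at their other sites. *Mei4*, which encodes a protein needed for meiotic DNA breaks, had 36 of 37 methylated calls for WT, 46 of 53 for *Pld6* KO and 5 of 30 for *Dnmt3l* KO. The glutamate receptor gene *Grik2* had 0.864, 0.799 and 0.154. At the other end *Dpp6*, which encodes a subunit of potassium channels, had 0.779, 0.873 and 0.524 (0.377 to 0.666), and *Scaper*, which encodes a cyclin A-binding protein, had 0.892, 0.937 and 0.571 (0.422 to 0.709). The WT minus *Pld6* KO interval lay above 0 in 1 of the 121 genes and below 0 in 6. The former was *Lrfn5*, a synaptic adhesion protein, with 48 of 55 methylated calls in WT and 46 of 65 in *Pld6* KO. The largest difference in the other direction was in *Spock3*, a proteoglycan gene, with 42 of 62 and 59 of 66. *Lrfn5* and *Spock3* were picked as the ends of the 121. Counting error alone makes some of so many intervals exclude 0, and the intervals were not adjusted for the number of genes. These counts therefore do not show that any single gene differed in *Pld6* KO.

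Gene groups differed in WT as well as in *Dnmt3l* KO. The 40 listed neuronal adhesion and synapse genes all held isolated sites and together had 0.849 (0.838 to 0.859) for WT, 0.852 (0.843 to 0.861) for *Pld6* KO and 0.294 (0.278 to 0.311) for *Dnmt3l* KO. Of the 35 with at least 20 calls, 34 were at least 0.3 lower in *Dnmt3l* KO and 0 in *Pld6* KO, against 96.6% and 0% of the 237 genes. Ubiquitously expressed long genes, of which 20 of 28 held such sites, had 0.897 (0.867 to 0.921), 0.880 (0.853 to 0.903) and 0.440 (0.386 to 0.497). In *Dnmt3l* KO the intervals of these groups did not overlap. At sites isolated in the reference too the *Dnmt3l* KO level was 0.294 in the neuronal and 0.440 in the ubiquitous genes. At dense sites of the same genes it was 0.185 and 0.430, so the order was not particular to isolated sites. Of the 6 ubiquitous genes with at least 20 calls, 6 were at least 0.3 lower in *Dnmt3l* KO, against the same 96.6%.

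The receptor genes of smell, which stand in tandem clusters and serve mainly in sensory neurons, were at the low end. Vomeronasal receptor genes, 109 of 349 with an isolated site, had 0.685 (0.645 to 0.722) for WT, 0.627 (0.590 to 0.662) for *Pld6* KO and 0.122 (0.0910 to 0.161) for *Dnmt3l* KO. Olfactory receptor genes, 47 of 1104, had 0.713 (0.632 to 0.783), 0.683 (0.622 to 0.738) and 0.115 (0.0652 to 0.194). At sites isolated in the reference too the *Dnmt3l* KO level was 0.166 in vomeronasal and 0.100 in olfactory receptor genes. At dense sites of these genes it was 0.0810 and 0.108. No gene of either family reached 20 calls. Genes of the germ line and of the piRNA pathway were hardly covered, with 16 sites in 10 of 40 genes and 0.900, 0.889 and 0.536 (0.358 to 0.705, 28 calls). Genes of the methylation machinery had 10 sites in 3 of 13 genes, with 0.880, 0.905 and 0.389 (0.203 to 0.614, 18 calls).

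Further families in clusters were added after the levels of windows were seen, so that their values describe these libraries only. The *Skint* genes, which encode selection factors of epidermal T cells, had the lowest level of the added groups, with 91 sites in 10 of 11 genes and 0.498 (0.438 to 0.558) for WT, 0.489 (0.436 to 0.543) for *Pld6* KO and 0.0398 (0.0194 to 0.0798) for *Dnmt3l* KO. The *Klra* genes, receptors of natural killer cells, had 0.593, 0.586 and 0.118 from 9 sites. Zinc finger genes of the Zfp name had 0.830, 0.827 and 0.375 from 160 sites, close to the WT level of all isolated sites. In the *Skint* genes 36.3% of the sites were soft-masked, against 18.3% to 22.6% in the smell receptor families.

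Single isolated sites of WT were commonly methylated in every call, and hardly ever in none. Of the sites with 5 to 20 calls in a library, 45.1% of 11641 in WT and 42.2% of 22985 in *Pld6* KO were methylated in every call, and 1.21% and 1.35% in none. With 10 to 20 calls the shares methylated in every call were lower, at 22.2% of 437 sites in WT and 25.5% of 1751 in *Pld6* KO, and 0.458% and 1.03% were methylated in none. In *Dnmt3l* KO 43.7% of 1476 sites were methylated in no call, 2.78% in every call and 53.5% in some calls. Dense sites of WT were methylated in no call at 25.3%, and dense sites over 2 kb from a gene start at 12.2%. Unmethylated positions were therefore far scarcer among isolated than among dense sites of WT.

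**Figure D5:**
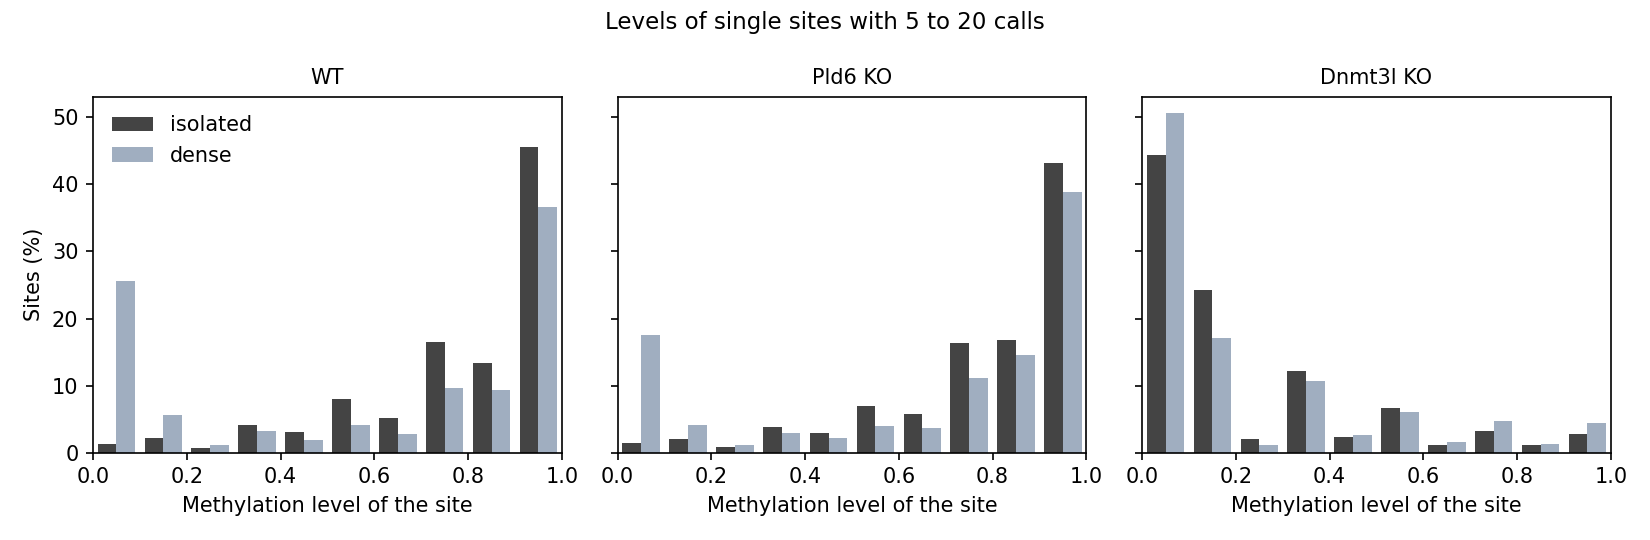
Share of sites (%, vertical axis) by methylation level of the site (fraction, horizontal axis, 10 classes) among isolated (dark) and dense (light) sites with 5 to 20 calls, for WT (left), Pld6 KO (middle) and Dnmt3l KO (right). In WT 45.1% of isolated sites are fully methylated and 1.21% unmethylated, against 25.3% unmethylated among dense sites. In Dnmt3l KO 43.7% of isolated sites are unmethylated. The sites were chosen in each library separately, so the panels hold different sites.

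At sites grouped by their WT level, with at least 5 WT calls, the *Dnmt3l* KO level followed that of WT. It was 0.0719 where WT was from 0 to 0.2 (259 sites), 0.148 where WT was from 0.4 to 0.6 and 0.322 where WT was from 0.8 to 1 (8289 sites). The *Pld6* KO levels in these classes were 0.299, 0.656 and 0.862. The classes were formed on WT calls, so that WT sampling error enters each difference from WT, and none is given. Sites low in WT were 48.3% soft-masked, against 27.5% of those high in WT.

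Site by site, few isolated positions had enough calls to compare. With at least 10 calls in both libraries, 18 of 22 isolated sites were at least 0.3 lower in *Dnmt3l* KO, against 31.7% of all autosomal sites with such depth. With at least 5 calls it was 426 of 532 (80.1%), against 59.8%. For *Pld6* KO it was 7 of 138, against 3.72% of all sites, and with at least 5 calls 465 of 5061 (9.19%), against 5.80%. At least 0.3 higher in *Pld6* KO were 3 of the 138, against 4.25% of all sites, and 428 of the 5061 (8.46%), against 6.92%. Depth moved with the level, since isolated sites with more than 20 calls had a WT level of 0.546 (25 sites) against 0.818 over 5 to 8 calls. In *Pld6* KO the level was 0.766 at isolated sites with 1 call in that library and 0.817 over 5 to 8 calls. In WT it was 0.816 at sites with 1 call. The part of depth in these counts and in the small pooled difference of *Pld6* KO from WT was not tested.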

How the data were processed

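The authors prepared whole-genome bisulfite libraries of sorted spermatogonia by post-bisulfite adaptor tagging, trimmed the single-end reads and mapped them to mm10 with Bismark, whose version is not given in the sources used here. Removal of duplicates and a coverage filter are not stated. Per CpG, the authors' files hold deposited counts, 1 of methylated and 1 of unmethylated calls. Their deposited fraction is the methylation level and matched those counts at all sites. Each CpG is listed once, at the C of the plus strand. Total calls were 43757722 for WT, 64076569 for *Pld6* KO and 19289688 for *Dnmt3l* KO.

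Neighbours were counted in the union of the 3 files on the 19 autosomes. Genes, gene starts, soft-masked repeats and sequences were taken from the RefSeq annotation and sequence of GRCm38, the assembly that mm10 names, at whose CG positions all listed autosomal sites lay. Calls were pooled over sites, and unless stated otherwise the levels of a comparison used sites listed in all 3 files. Single-site shares, site counts and classes by calls or by WT level instead used the sites that reached the stated calls in the libraries named. Pooled levels have 95% Wilson intervals, differences of levels Newcombe intervals, and differences of such differences intervals from binomial variances. They cover counting error only. A site, window or gene was counted as lower where its level was at least 0.3 below WT. The methods were run on simulated calls drawn independently at set levels, which is what the intervals assume. The simulation held no duplicate reads and no further spread between sites, so it does not cover those. Computations used Python 3.11.15, numpy 2.4.6, pandas 2.3.3 and scipy 1.17.1, and figures matplotlib 3.10.9.

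Named genes were the 10 with the most isolated sites and, among protein-coding genes with at least 100 calls in each library, those with the largest and smallest differences, and up to 4 of each gene list. The rule for single sites, with 10 to 20 calls in each library, found 0 sites. It was relaxed to 5 to 20 calls after seeing the data. Also chosen after seeing the data were the minimum of 30 calls per gene, the contexts of 6 bases, the 5 Mb windows and the added families. The sites, lists and rules were chosen with earlier results of these data known. Alternatives changed the call minimum and maximum, the isolation distance, the reference or listed neighbours, repeats, chromosome X, the pooling and the dense set, and the closing section gives their effect.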

Additional observations from a re-analysis of the deposited data

How the results depend on the processing

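All differences from WT at isolated sites and their excesses over dense sites kept their direction under each alternative. In *Pld6* KO the interval of the difference from WT included 0 with at least 3 and with at least 5 calls. The WT minus *Pld6* KO difference at dense sites changed its sign when each site counted equally. Of 106 values recomputed, 28 stayed within the counting interval of the reported value (counts: within 1.5 times) and 78 did not. Those follow, as the isolated level, then WT minus KO at isolated sites, then its excess over dense sites. With every site listed in the library itself the level was 0.804 for *Pld6* KO and 0.262 for *Dnmt3l* KO, the difference 0.0131 for *Pld6* KO and 0.555 for *Dnmt3l* KO, the excess 0.0530 for *Pld6* KO. With at least 3 calls in each library the level was 0.798 for WT, 0.797 for *Pld6* KO and 0.262 for *Dnmt3l* KO, the difference 0.00114 for *Pld6* KO and 0.537 for *Dnmt3l* KO, the excess 0.0323 for *Pld6* KO and 0.260 for *Dnmt3l* KO. With at least 5 calls the level was 0.719 for WT, 0.717 for *Pld6* KO and 0.199 for *Dnmt3l* KO, the difference 0.00272 for *Pld6* KO and 0.520 for *Dnmt3l* KO, the excess 0.0355 for *Pld6* KO and 0.282 for *Dnmt3l* KO. With at most 20 calls the level was 0.814 for *Pld6* KO, the excess 0.2001 for *Dnmt3l* KO. As the mean of site levels the level was 0.824 for WT, 0.810 for *Pld6* KO and 0.282 for *Dnmt3l* KO, the difference 0.0146 for *Pld6* KO, the excess 0.0101 for *Pld6* KO and 0.189 for *Dnmt3l* KO. For sites isolated in the reference the level was 0.827 for WT, 0.824 for *Pld6* KO and 0.294 for *Dnmt3l* KO, the difference 0.533 for *Dnmt3l* KO, the excess 0.210 for *Dnmt3l* KO. At an isolation distance of 250 bp the level was 0.833 for WT, 0.829 for *Pld6* KO and 0.322 for *Dnmt3l* KO, the difference 0.512 for *Dnmt3l* KO, the excess 0.189 for *Dnmt3l* KO. At 1000 bp the level was 0.768 for WT, 0.752 for *Pld6* KO and 0.209 for *Dnmt3l* KO, the difference 0.0160 for *Pld6* KO and 0.559 for *Dnmt3l* KO, the excess 0.0545 for *Pld6* KO and 0.237 for *Dnmt3l* KO. Without soft-masked repeats the level was 0.829 for WT, 0.826 for *Pld6* KO and 0.293 for *Dnmt3l* KO, the difference 0.00319 for *Pld6* KO and 0.536 for *Dnmt3l* KO, the excess 0.206 for *Dnmt3l* KO. With chromosome X added the level was 0.816 for WT, 0.809 for *Pld6* KO and 0.269 for *Dnmt3l* KO. The excess for *Pld6* KO and *Dnmt3l* KO was 0.0585 and 0.356 against sites with 20 or more neighbours, 0.0290 and 0.162 against all with at least 1 neighbour and 0.0337 and 0.179 against dense sites over 2 kb from gene starts. Isolated sites at least 0.3 lower in *Pld6* KO (7 of 138) were 465 of 5061 with at least 5 calls, 0 of 20 with at least 20 and 3 lower by at least 0.5. Among those isolated in the reference, a choice made after seeing the data, they were 3 of 48. By Fisher's exact test on calls, Benjamini-Hochberg adjusted over all autosomal sites tested, 1 of the 138 was lower. In *Dnmt3l* KO (18 of 22) they were 426 of 532, 2 of 3 with at least 20 calls, 11 of 15 with at most 30 and 5 of 5 isolated in the reference. With protein-coding genes only the level inside genes was 0.851 for WT, 0.846 for *Pld6* KO and 0.359 for *Dnmt3l* KO and the level outside genes was 0.242 for *Dnmt3l* KO. Without repeats the level inside genes was 0.851 for WT, 0.850 for *Pld6* KO and 0.360 for *Dnmt3l* KO and the level outside genes was 0.818 for WT, 0.813 for *Pld6* KO and 0.258 for *Dnmt3l* KO. With at most 20 calls, the lowest and highest chromosome levels of isolated sites stayed within their intervals. Where a value moved, the cause was not tested. No paired analysis was possible because 1 library per genotype was analysed, and for the same reason no library could be left out. The depth, under 3 calls per isolated site, limits single sites and genes.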
